A study of Mus musculus with 8 samples.

Results

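Antigen-stimulated B cells that carried either of 2 forms of one antigen receptor were compared on 4 of the series' 8 arrays. The arrays were picked by their titles: 2 held follicular (FO) B cells with the IgMG receptor stimulated with hen egg lysozyme (HEL), and 2 held FO B cells with the IgM receptor stimulated the same way. Both receptors bind HEL. IgMG is a chimeric IgM whose extracellular spacer, transmembrane stretch and cytoplasmic tail come from IgG1, so the stimulated groups differ by label in those segments and share the antigen. The other 4 arrays, 2 for each receptor, held unstimulated FO B cells and serve here as the state before antigen. Cells were sorted and pooled over mice: the HEL-stimulated IgM arrays pooled 4 and 2 mice, and the HEL-stimulated IgMG arrays pooled 8 and 6. Receptor and number of mice therefore cannot be told apart. Strain, age and the length of the stimulation were not stated by the labels.

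Engagement of the B cell receptor starts tyrosine kinase signals through Cd79a and Cd79b, which raise calcium and activate MAP kinases and NF-kB. Immediate-early transcription factors, chemokines and Myc are switched on, and genes of the resting state, such as Klf2, are switched off. IgM has a very short cytoplasmic tail, while the longer tail of membrane IgG carries a conserved tyrosine motif and is known for its part in memory responses. Coreceptors such as Cd22 dampen the signal through phosphatases.

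Signals are MAS5 intensities on a linear scale, and differences are log2 of signal plus 16, IgMG minus IgM, so that a negative value means lower in IgMG. Values are given in the order of the array titles, first and second experiment. A gene is represented by its brightest probe set. Ighm, the IgM heavy chain, had signals of 11203 and 13828 on the IgM arrays and 14836 and 12044 on the IgMG arrays, and its log2 difference was 0.10 ± 0.23 (SE). The sign of that difference turned under quantile normalization and when its probe sets were averaged. Cd79a, a signalling subunit of the receptor, had signals of 6572 and 7598 on the IgM arrays and 7758 and 5876 on the IgMG arrays, a log2 difference of -0.066 ± 0.20 (SE). Cd79b, its partner, was at 2877 and 3759 on the IgM arrays and 4177 and 4055 on the IgMG arrays. The groups overlapped for Ighm and Cd79a and not for Cd79b, whose adjusted p was 0.515 in limma. No probe set named for Ighg1 entered the analysis, so the exchanged segments were not checked.

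The second HEL-stimulated IgM array stood apart from the other stimulated arrays. Over the brightest 7453 probe sets it correlated at 0.954 with its own replicate and at 0.934 and 0.929 with the IgMG arrays, while the other pairs of stimulated arrays lay between 0.961 and 0.971. Median signal per array lay between 40.7 and 47.8 over all 8 arrays. The ratio of 5′ to 3′ signal of the Gapdh control probes, a measure of transcript integrity and labelling, was 0.328 and 0.755 on the IgM arrays with HEL and 0.221 and 0.140 on the IgMG arrays with HEL. It did not overlap between the receptors.

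Markers of cells other than B cells also moved with the comparison. Of 28 measured markers of macrophages, monocytes and dendritic cells, 24 had higher means in HEL-stimulated IgMG cells, and their summed signal was 5405 and 3454 on the IgM arrays and 12043 and 6563 on the IgMG arrays. Of 14 NK cell markers 12 had higher means, with sums of 664 and 498 against 1329 and 1111. All 14 erythroid markers had higher means with all arrays, 0 of them at an unadjusted p under 0.05, but without the second IgM array 3 had higher and 11 lower means (median -0.17, from 0.35), and with the Gapdh ratio as a covariate 9 and 5. In that list the haemoglobin gene Hba-a1 was at 11821 and 12305 on the IgM arrays and 16616 and 13316 on the IgMG arrays. Of 16 T cell markers 9 had higher and 7 lower means. Their summed signal was 1175 and 1284 on the IgM arrays and 1286 and 1216 on the IgMG arrays. Among them Cd3e was near the lower end of the scale on every array, at 9.3 and 8.3 against 11.6 and 11.4. In bulk samples, more cells of a type and more RNA per cell cannot be told apart. The part of these cells and of transcript integrity in the results below was not tested, beyond a fit with the Gapdh ratio as a covariate and fits without single arrays. That ratio did not overlap between the receptors with HEL, so the covariate fit cannot fully tell receptor and ratio apart. Leaving out a stimulated array leaves a single array in its group.

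**Figure D1:**
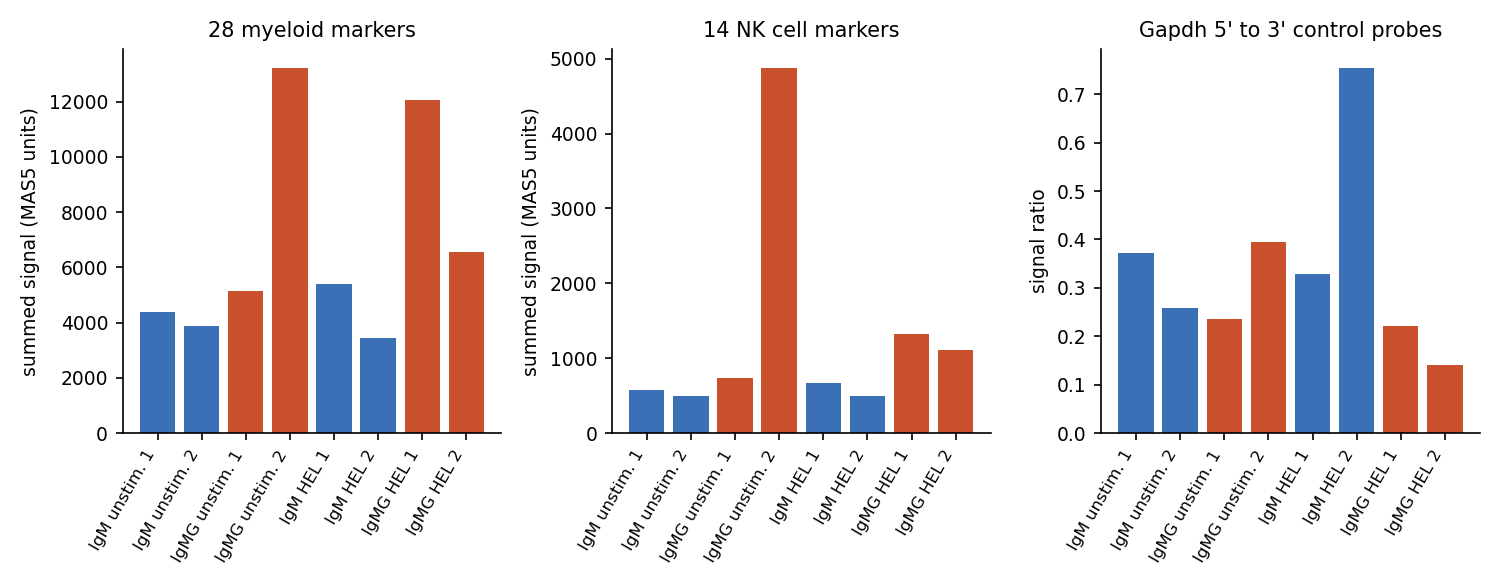
Summed signal of 28 myeloid markers, summed signal of 14 NK cell markers and the ratio of 5′ to 3′ Gapdh control signal on each of the 8 arrays, IgM in blue and IgMG in red; each bar is 1 array. Both HEL-stimulated IgMG arrays lie above both HEL-stimulated IgM arrays in both marker sums (6563 or more against 5405 or less for the myeloid sum) and below them in the ratio (0.221 or less against 0.328 or more).

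The comparison asked which transcripts differ between the receptors once antigen is bound. Ccl4 and Ccl3, chemokines that activated B cells secrete, Plk2, an inducible kinase, and Irs2, an adaptor of insulin and interleukin-4 receptors, were lower in IgMG cells, while Klf2, a transcription factor of resting lymphocytes, Txnip, a brake on glucose uptake, and the coreceptor gene Cd22 were higher. In limma 0 of 12422 probe sets (0%) were called in either direction at an adjusted p of 0.05, and the lowest adjusted p was 0.126, that of Ccl4. At an unadjusted p under 0.05, 1446 probe sets (11.6%) differed, of which 647 were higher (5.21%) and 799 lower (6.43%) in IgMG, where a p of that size alone gives 621 in all. Without the second IgM array with HEL the higher ones were 400, and without the second IgMG array with HEL the lower ones were 468. With 2 arrays against 2 an exact permutation test cannot go below p = 0.333. In simulated data with noise drawn independently for each probe set and array, limma recovered 17.5% of 200 probe sets with a log2 change of 1. It recovered 75% of those with 2 and 78.5% of those with 3. False calls were 2, 4 and 13. A deviation shared by many probe sets of an array was not simulated.

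A difference of at least 2-fold without overlap of the arrays was seen for 270 probe sets (2.17%), 103 of them higher (0.829%) and 167 lower (1.34%) in IgMG. This count rests on the offset, since an offset of 1 gave 561 and 818 and an offset of 64 gave 26 and 32. Over 8251 genes, each by its brightest probe set, 167 passed this rule (2.02%): 78 were at least 2-fold higher (0.945%) and 89 at least 2-fold lower (1.08%). The median log2 difference over these genes was -0.012.

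**Figure D2:**
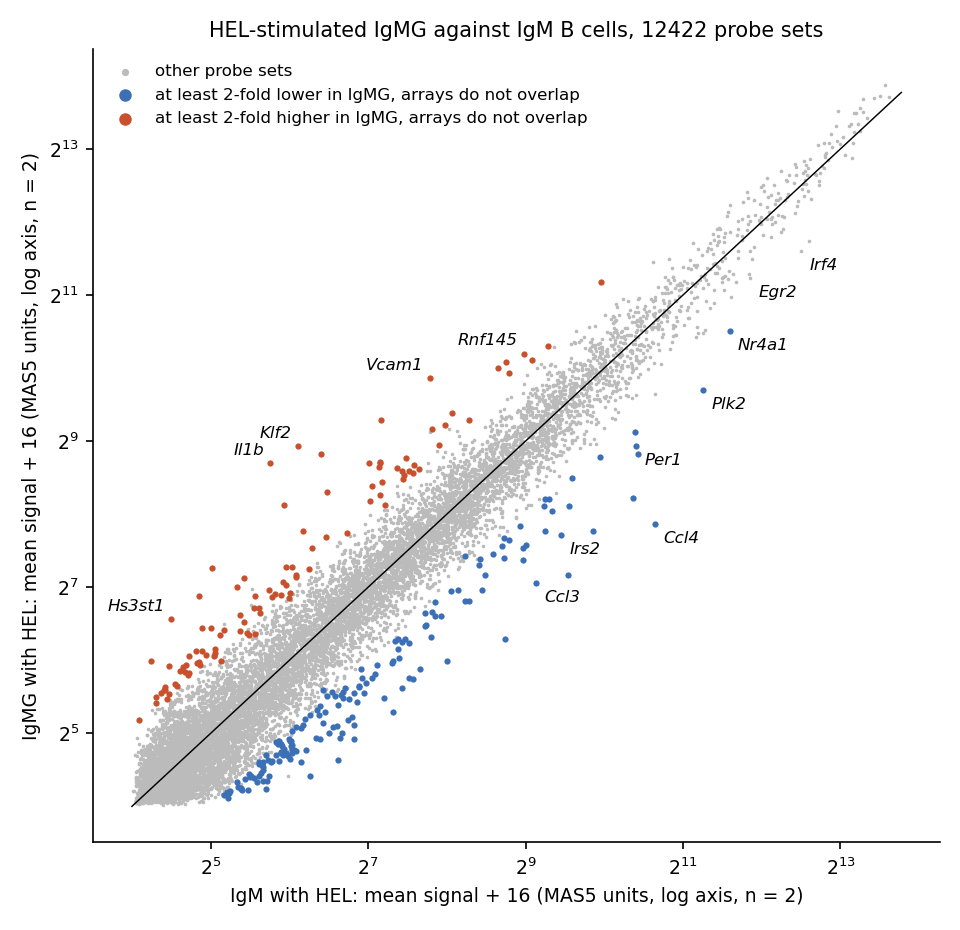
Mean signal plus 16 of 12422 probe sets in HEL-stimulated IgM cells (horizontal) and HEL-stimulated IgMG cells (vertical), n = 2 arrays each, both axes logarithmic. Points in blue (167) and red (103) are at least 2-fold apart without overlap of the arrays, and the line marks equal signal; Ccl4 lies farthest below it.

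Ccl4 showed the largest gap among the genes lower in IgMG. Its signals were 1472 and 1704 on the IgM arrays and 205 and 228 on the IgMG arrays with HEL, a 7.32-fold difference of the means and a log2 difference of -2.78 ± 0.29 (SE), with an adjusted p of 0.126 in limma. The groups lay far apart, and the replicates within each lay close together. Before antigen, signals were 19.6 and 3.1 in IgM and 23.7 and 18.1 in IgMG cells, near the lower end of the scale on every array. Ccl4 passed the threshold with an offset of 64 (adjusted p = 0.00409), with the 4 HEL-stimulated arrays alone (adjusted p = 0.0142), over the brightest 60% of probe sets (adjusted p = 0.0351) and without either unstimulated IgM array (adjusted p = 0.0252 and 0.0213). Its difference lay between -2.89 and -2.52 in all 17 processing variations, and its adjusted p between 0.00409 and 0.769.

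Ccl3, the neighbouring chemokine of the same family, had signals of 482 and 606 on the IgM arrays and 114 and 121 on the IgMG arrays, a 4.64-fold difference and a log2 difference of -2.06 ± 0.34 (SE) (adjusted p = 0.203). The groups did not overlap. Before antigen Ccl3 was at 16.8 and 6.4 in IgM and 18.6 and 49.1 in IgMG cells, so that the order of the receptors was turned. All but the last of these signals were near the lower end of the scale. Of 16 chemokine and cytokine genes that B cells can make, 3 were lower at an unadjusted p under 0.05 and 0 were higher, against 6.35% and 5.79% of all genes. The third was Vegfa, a growth factor of blood vessels, at 28.5 and 43.6 against 3.2 and 2.6. Tnf was at 247 and 346 against 192 and 201, again lower on both IgMG arrays. Il1b, which macrophages make in quantity, went the other way, at 50.5 and 25.6 against 693 and 106, and was high on the IgMG array with the higher sum of myeloid markers. The median of the list was 0.031, next to -0.012 for all genes.

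Plk2, a kinase of the Polo family that is induced by growth signals, had signals of 2131 and 2717 on the IgM arrays and 796 and 838 on the IgMG arrays, a log2 difference of -1.54 ± 0.20 (SE) (adjusted p = 0.141). Irs2 was at 556 and 814 on the IgM arrays and 181 and 205 on the IgMG arrays, a log2 difference of -1.72 ± 0.25 (SE) (adjusted p = 0.141). In both cases all 4 stimulated arrays lay above the unstimulated ones, and the IgMG arrays sat between. Of 17 regulators listed as strongly antigen-induced in B cells, 5 were lower and 1 was higher at an unadjusted p under 0.05, next to 6.35% and 5.79% of all genes, with a median of -0.34. Gfi1, a transcriptional repressor, was at 787 and 1149 against 379.7 and 472, and Tgif1, a repressor in TGF-beta signalling, at 2356 and 2208 against 1472 and 1255. With the Gapdh ratio as a covariate 2 of the 17 were lower, where 2.78% of all genes were, and the median was -0.047. Without the second IgM array the median was -0.30. The one higher member was Txnip, described below, whose signals fell with HEL in both kinds of cell. Its log2 response was -1.99 in IgM and -1.10 in IgMG cells, so it was not antigen-induced here.

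**Figure D3:**
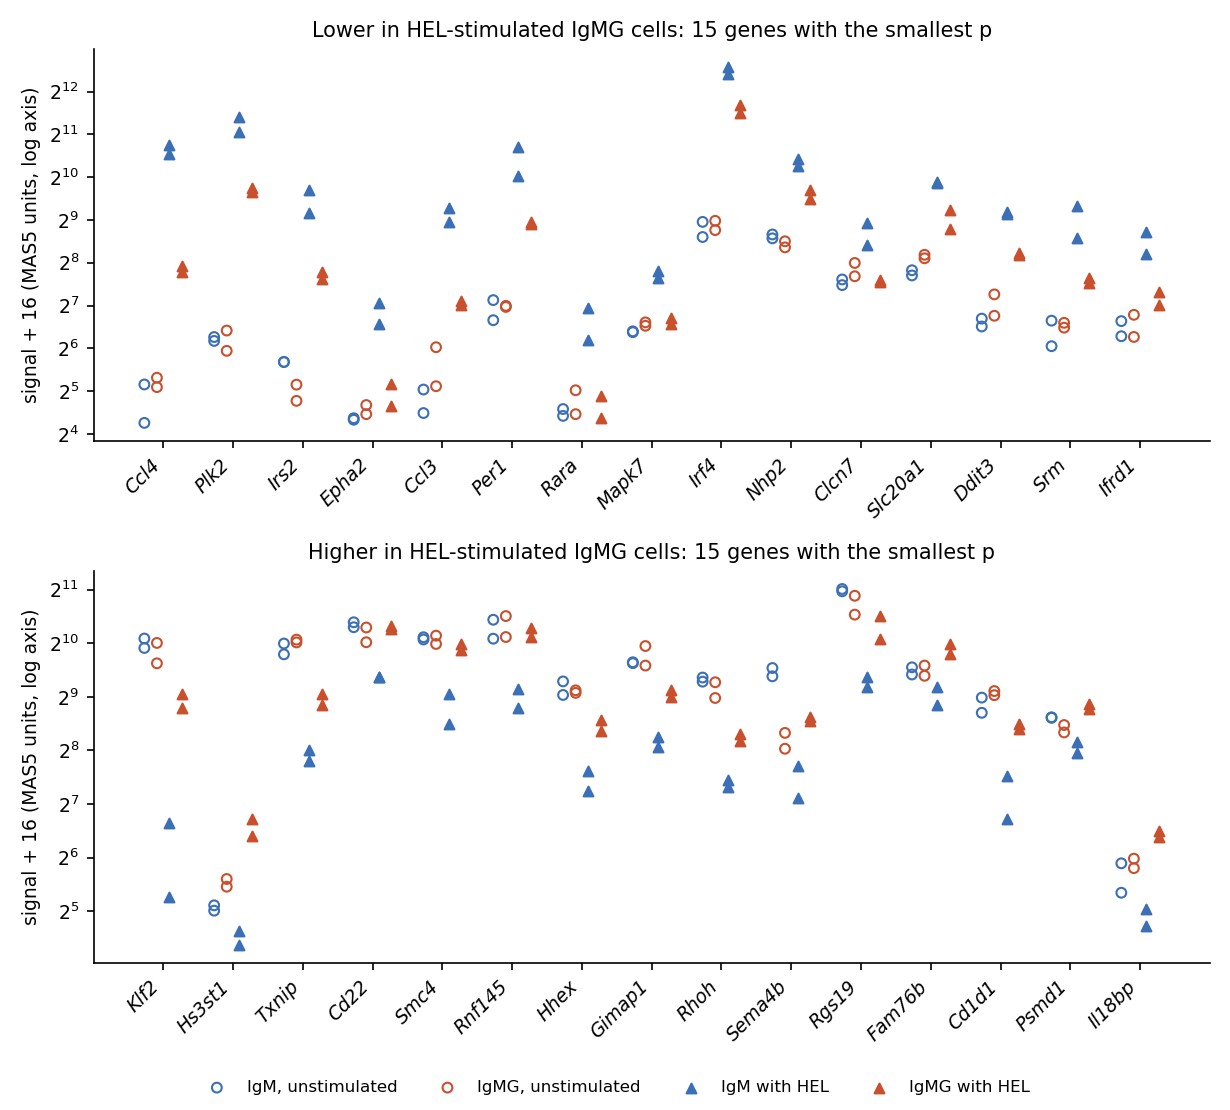
Signal plus 16 of each array (logarithmic axis) for the 15 genes lower (top) and the 15 genes higher (bottom) in HEL-stimulated IgMG cells with the smallest unadjusted p; open circles are unstimulated and filled triangles HEL-stimulated arrays, IgM in blue and IgMG in red. The genes were chosen by that p, and their triangles do not overlap. The circles of the receptors overlap in 14 of the 30, a count given without the share of all genes. In limma 0 of the 30 passed an adjusted p of 0.05.

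Klf2 had the largest gap among the genes higher in IgMG. Its signals were 83.9 and 22.2 on the IgM arrays and 515 and 426 on the IgMG arrays, a 8.87-fold difference of the means and a log2 difference of 2.97 ± 0.38 (SE) (adjusted p = 0.141). Before antigen it was at 1071 and 946 in IgM and 1011 and 773 in IgMG cells, so the IgM arrays with HEL lay far below the unstimulated signals and the IgMG arrays with HEL in between. The IgM replicates were themselves wide apart, with the lower value on the array that stands apart. Without the first IgM array Klf2 was called (adjusted p = 0.0137), and over 17 variations its difference lay between 2.04 and 3.67.

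Txnip was at 242 and 206 on the IgM arrays and 512 and 443 on the IgMG arrays with HEL, a log2 difference of 1.04 ± 0.15 (SE) (adjusted p = 0.141), and at 1003 and 870.4 in IgM and 1056 and 1018 in IgMG cells without. A dimmer Txnip probe set had the opposite sign. Hs3st1, a heparan sulfate sulfotransferase, was at 4.7 and 8.6 on the IgM arrays and 89 and 68.5 on the IgMG arrays, a log2 difference of 2.06 ± 0.27 (SE). Its signals in IgM cells were near the lower end of the scale, so its difference ranged from 1.01 to 3.42 with the processing.

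The promoters of 4 of these genes are printed because they hold a match to a motif searched, so they were chosen after the search; those of Hs3st1 and Irs2 held none. Each is the 250 bases before the RefSeq start site in GRCm38.p6, 5′ to 3′ on the gene's strand, at chr8:72318812-72319061, plus strand for Klf2, chr3:96557707-96557956, plus strand for Txnip, chr13:110394794-110395043, plus strand for Plk2 and chr11:83649379-83649628, minus strand for Ccl3. Capitals mark matches to the motifs searched.
Klf2: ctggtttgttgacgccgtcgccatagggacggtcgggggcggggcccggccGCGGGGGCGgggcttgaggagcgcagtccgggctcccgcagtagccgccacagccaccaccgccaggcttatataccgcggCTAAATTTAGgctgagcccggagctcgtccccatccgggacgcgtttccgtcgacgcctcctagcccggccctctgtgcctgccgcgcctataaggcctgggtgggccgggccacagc
Txnip: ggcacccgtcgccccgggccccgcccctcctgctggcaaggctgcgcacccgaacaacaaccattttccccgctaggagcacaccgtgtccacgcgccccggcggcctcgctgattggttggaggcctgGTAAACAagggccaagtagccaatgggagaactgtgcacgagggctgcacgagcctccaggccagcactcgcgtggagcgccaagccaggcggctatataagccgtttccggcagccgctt
Plk2: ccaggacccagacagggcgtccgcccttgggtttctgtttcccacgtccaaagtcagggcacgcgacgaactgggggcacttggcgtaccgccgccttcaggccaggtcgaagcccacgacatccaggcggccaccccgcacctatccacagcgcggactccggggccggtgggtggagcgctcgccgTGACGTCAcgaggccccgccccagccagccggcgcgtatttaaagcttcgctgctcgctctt
Ccl3: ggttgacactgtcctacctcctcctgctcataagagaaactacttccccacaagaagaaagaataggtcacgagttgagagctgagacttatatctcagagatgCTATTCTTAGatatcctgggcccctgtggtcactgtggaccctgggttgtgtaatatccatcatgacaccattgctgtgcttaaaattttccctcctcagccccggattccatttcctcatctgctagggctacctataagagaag

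Of 41 named genes 32 matched a promoter entry. The letters searched, on both strands, were GGG and TTCC with 3 bases between them for NF-kB, TGANTCA for AP-1, TGACGTCA for the cyclic AMP response element (CRE), GCGNGGGCG for Egr factors, GTAAACA for FoxO factors and CTA and TAG with 4 bases between them for MEF2, the last added after the sequences had been seen. Their shares among 27025 promoters of the same length were 4.6%, 6.87%, 1.62%, 4.65%, 3.09% and 3.23%. Klf2 holds GCGGGGGCG with its first base 199 bases before the start and CTAAATTTAG at 118 bases, Txnip holds GTAAACA at 121 bases, Plk2 TGACGTCA at 62 bases and Ccl3 CTATTCTTAG at 146 bases. Epha2, a receptor kinase whose signals were 78.7 and 116 against 9 and 19.9, holds TGACGTCA at 33 bases. Among the 13 matched promoters of the lower genes and the 13 of the higher genes, by their first listed start, the CRE letters stood in 2 and 0, those of AP-1 in 1 and 0, of Egr in 1 and 2, of NF-kB in 0 and 1, of FoxO in 0 and 1 and of MEF2 in 1 and 1. A match describes letters in the window and says nothing about binding.

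Quiescence and recirculation genes were split. Of 21 measured, 4 were higher and 2 lower at an unadjusted p under 0.05, next to 5.79% and 6.35% of all genes, with a median of 0.25. With the Gapdh ratio as a covariate 3 were higher and 0 lower, next to 2.95% and 2.78% of all genes in that fit. After Klf2 came Sesn1, a stress-induced inhibitor of growth signalling, at 256 and 163 against 718 and 403, and Ccng2, a cyclin of resting cells, at 452 and 350.2 against 582 and 583. The lower members were both chemokine receptors of migration into lymphoid tissue: Ccr7 was at 995 and 1655 on the IgM arrays and 598 and 488 on the IgMG arrays, a log2 difference of -1.22 ± 0.27 (SE), and Cxcr4 at 749.8 and 724 on the IgM arrays and 522 and 408 on the IgMG arrays, a log2 difference of -0.66 ± 0.18 (SE). Without HEL Ccr7 was at 268 and 403 in IgM and 332 and 278 in IgMG cells and Cxcr4 at 203 and 223 in IgM and 132 and 174 in IgMG cells, so both had higher signals with antigen than without, unlike Klf2.

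Among inhibitory coreceptors and their phosphatases, 4 of 13 were higher and 2 lower at an unadjusted p under 0.05 (5.79% and 6.35% of all genes), and the median was -0.21. Cd22, which recruits the phosphatase SHP-1 to the receptor, was at 645 and 641 on the IgM arrays and 1214 and 1265 on the IgMG arrays, a log2 difference of 0.93 ± 0.14 (SE) (adjusted p = 0.152). Replicates were nearly equal, and the stimulated IgMG arrays lay at the unstimulated level of 1242 and 1326 in IgM and 1238 and 1020.4 in IgMG cells. Fcgr2b, the inhibitory Fc receptor, was at 266 and 233 against 369 and 376, and Ptprc, the CD45 phosphatase, at 1497 and 1256 against 1908 and 2043, with a dimmer Ptprc probe set of opposite sign. Ptpn22, a phosphatase of Src family kinases, was at 937 and 919 against 1735 and 1296, but it was also higher in unstimulated IgMG cells (179 and 196 in IgM and 431 and 742 in IgMG cells). Inpp5d, the lipid phosphatase SHIP, was lower, at 1169.5 and 1613 against 1025 and 888. With the Gapdh ratio as a covariate 2 of the 13 were higher and 0 lower, next to 2.95% and 2.78% of all genes. The median turned to 0.27 in that fit, and it was -0.032 without the second IgM array.

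Of 21 genes of the receptor and its proximal signalling, 2 were higher (9.52%) and 1 lower (4.76%) at an unadjusted p under 0.05, where 5.79% and 6.35% of all genes were. Fyn, a Src family kinase, was at 157 and 195 against 360.2 and 424, and before antigen at 141 and 173 in IgM and 232 and 334 in IgMG cells, higher on both IgMG arrays too. Blnk, the adaptor that links Syk to phospholipase C, was at 1201 and 1038 against 2076 and 1657, although a second, dimmer probe set had the opposite sign. Ppp3ca, a catalytic subunit of calcineurin, was at 904 and 728 against 1243 and 1388, and Nfatc1, a calcium-driven transcription factor, was lower, at 1569 and 1471 against 1081 and 1158. Of 14 calcium and NFAT genes 1 was higher and 2 lower.

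Of 9 feedback regulators of MAP kinase and G protein signals, 3 were higher and 1 was lower at an unadjusted p under 0.05, against 5.79% and 6.35% of all genes. Dusp6, a phosphatase of ERK, was at 156 and 181 on the IgM arrays and 275 and 357 on the IgMG arrays, a log2 difference of 0.84 ± 0.16 (SE) (adjusted p = 0.206). Before antigen it was lower in IgMG, at 696 and 645 in IgM and 444 and 439 in IgMG cells, the reverse of the order with HEL. Rgs19 was at 564 and 647 against 1060 and 1435 and Rgs14 at 296 and 153 against 388 and 363, both of which shorten signals of inhibitory G proteins. Gem, an antigen-induced GTPase, was lower, at 583 and 430.4 against 306 and 306. Mapk7, the kinase ERK5, was at 184 and 207 on the IgM arrays and 79.3 and 88.9 on the IgMG arrays, a log2 difference of -1.08 ± 0.20 (SE), and the IgMG arrays lay within or just above the unstimulated range of 67.1 to 81.4.

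Immediate-early transcription factors had the lowest median of the lists, -0.45. Of 20 measured, 15 had lower means in IgMG, 8 were lower and 1 was higher at an unadjusted p under 0.05 (6.35% and 5.79% of all genes), and 12 lay lower without overlap of the arrays, where 23.1% of all genes did. Nr4a1, an orphan nuclear receptor that tracks receptor signal strength, was at 3121 and 3023 on the IgM arrays and 1601 and 1276 on the IgMG arrays, a log2 difference of -1.09 ± 0.35 (SE) (adjusted p = 0.31). Atf3, a stress-induced factor, was at 205 and 363 against 111 and 80.8, Klf10 at 424 and 429.9 against 171 and 199 and Junb, an AP-1 subunit, at 899 and 1316 against 733 and 628. Klf6 was the higher member, at 254 and 219 against 493 and 397. With the Gapdh ratio as a covariate 1 of the 20 was lower and 2 were higher, next to 2.78% and 2.95% of all genes. The median in that fit was -0.38. It lay between -0.53 and -0.40 when single stimulated arrays were left out.

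Egr2, a factor that restrains lymphocyte activation, was at 3683 and 3692 on the IgM arrays and 2505 and 2288 on the IgMG arrays, a log2 difference of -0.62 ± 0.24 (SE) (adjusted p = 0.38), with no overlap. Egr1 was at 3396 and 2476 on the IgM arrays and 2251 and 2619.5 on the IgMG arrays, a log2 difference of -0.25 ± 0.28 (SE), and the receptors overlapped. Myc was at 2635 and 1981 on the IgM arrays and 1459 and 1537 on the IgMG arrays, a log2 difference of -0.60 ± 0.21 (SE) (adjusted p = 0.35). Of 24 genes of the Myc network and its classic targets, 7 were lower and 0 higher at an unadjusted p under 0.05, next to 6.35% and 5.79% of all genes, and the median was -0.081. With the Gapdh ratio as a covariate 2 of the 24 were lower, where 2.78% of all genes were, and the median was -0.20. The median lay between -0.24 and -0.085 when single stimulated arrays were left out. Per1, a clock gene that responds to many stimuli, was at 1025 and 1647 on the IgM arrays and 467 and 477 on the IgMG arrays, a log2 difference of -1.43 ± 0.24 (SE).

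Of 22 NF-kB subunits, inhibitors and targets, 6 were lower and 1 higher at an unadjusted p under 0.05 (6.35% and 5.79% of all genes), with a median of -0.14, and 11 lay lower without overlap (23.1% of all genes). Nfkbib was at 585 and 691 against 432 and 377 and Nfkbie at 119 and 277 against 57.2 and 89.9, both inhibitors that hold NF-kB in the cytoplasm. Nfkb2, a subunit of the alternative pathway, was at 656 and 855 against 552 and 453, and Ikbkb, the kinase that releases NF-kB, at 125 and 199 against 74 and 51. Gadd45b, a target with a role in survival, was at 552 and 637 against 344 and 216. Nfkbia, the best known inhibitor, was at 1750.2 and 2048 on the IgM arrays and 1636 and 1386 on the IgMG arrays, a log2 difference of -0.33 ± 0.16 (SE) (adjusted p = 0.473), while a second Nfkbia probe set was of opposite sign. With the Gapdh ratio as a covariate 0 of the 22 were lower and 1 higher, where 2.78% and 2.95% of all genes were. The median in that fit was -0.29. It lay between -0.39 and -0.16 when single stimulated arrays were left out.

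Surface molecules of activation had 6 of 15 members lower and 1 higher at an unadjusted p under 0.05, where 6.35% and 5.79% of all genes were, and a median of -0.15. With the Gapdh ratio as a covariate 3 of the 15 were lower, where 2.78% of all genes were, with a median of -0.023. The median lay between -0.47 and -0.063 when single stimulated arrays were left out. Cd86, the costimulatory ligand of CD28, was at 481 and 746 on the IgM arrays and 344 and 216 on the IgMG arrays, a log2 difference of -1.09 ± 0.42 (SE) (adjusted p = 0.378), and its second probe set differed by -1.32. With the Gapdh ratio as a covariate the Cd86 difference was 0.13. Tfrc, the transferrin receptor that feeds iron to growing cells, was at 674 and 609.5 against 511 and 360.3. Cd44, an adhesion receptor, was at 27 and 63.5 against 16.7 and 6.7, and Il2ra, a chain of the interleukin-2 receptor, at 29.5 and 18.9 against 2.3 and 11.1, both dim on every array. Cd200, an inhibitory ligand, was higher, at 58.7 and 85.3 against 199.6 and 179.5, and IgMG cells with HEL lay within the unstimulated range of 141.7 to 216.

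Irf4, a transcription factor whose dose sets plasma cell fate, was at 5439.8 and 6091 on the IgM arrays and 3298 and 2894 on the IgMG arrays, a log2 difference of -0.89 ± 0.17 (SE) (adjusted p = 0.206). Every stimulated array was far above the unstimulated signals of 373 and 480.4 in IgM and 489 and 419 in IgMG cells. Id3 and Id2, inhibitors of E proteins, were higher, at 75.4 and 54.2 against 120.4 and 143 and 97.2 and 48.4 against 392 and 208, of which Id2 was also high on the second unstimulated IgMG array (500.2). Hhex, a homeobox factor of B cell development, was at 179 and 136 on the IgM arrays and 366 and 314 on the IgMG arrays, a log2 difference of 1.04 ± 0.18 (SE). Of 17 factors of B cell identity and plasma cell fate, 2 were higher (11.8%) and 1 lower (5.88%) at an unadjusted p under 0.05. These shares were near the 5.79% and 6.35% of all genes. Without the first IgM array the median of the list was 0.20, from 0.14 with all arrays.

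Ddit3, the stress factor CHOP, was at 546 and 571 on the IgM arrays and 286 and 275 on the IgMG arrays, a log2 difference of -0.95 ± 0.20 (SE) (adjusted p = 0.213). Atf4, which drives it, was at 2119.7 and 2739.5 on the IgM arrays and 1492 and 1344 on the IgMG arrays, a log2 difference of -0.76 ± 0.18 (SE) (adjusted p = 0.251), although before antigen it was higher in IgMG, at 719 and 868 in IgM and 1053 and 1267 in IgMG cells. These were the only members of 24 chaperone and Atf4 programme genes at an unadjusted p under 0.05, a share of 8.33% lower next to 6.35% of all genes, and the median was -0.11.

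Ribosome biogenesis genes were lower almost throughout. Of 39 measured, 34 had lower means in IgMG and 15 were lower and 0 higher at an unadjusted p under 0.05, next to 6.35% of all genes lower, and 28 lay lower without overlap (23.1% of all genes). The median was -0.37. Nhp2, a protein of the small nucleolar particles that guide pseudouridylation, was at 1207 and 1368 on the IgM arrays and 703 and 811 on the IgMG arrays, a log2 difference of -0.75 ± 0.14 (SE) (adjusted p = 0.206). Noc4l was at 335 and 355 against 193 and 238, Polr1c, a subunit of RNA polymerases I and III, at 335 and 275 against 209 and 158, Pes1 at 248 and 366 against 172 and 177 and Nop2 at 548 and 618 against 384 and 383, each without overlap. The median was also below 0 before antigen, at -0.19. The median with HEL stayed between -0.29 and -0.44 when single stimulated arrays were left out. With the Gapdh ratio as a covariate 6 were lower and 1 higher at that p, next to 2.78% and 2.95% of all genes.

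Of 23 translation factors 7 were lower and 0 higher at an unadjusted p under 0.05, next to 6.35% and 5.79% of all genes (median -0.19). With the Gapdh ratio as a covariate 1 was lower (4.35%), where 2.78% of all genes were. The median lay between -0.25 and -0.16 when single stimulated arrays were left out. Among the 7 were Eif6, which keeps ribosomal subunits apart, at 332 and 470.3 against 232 and 237, and the elongation factor Eef2, at 2704 and 3490 against 2230.3 and 1739. Of 23 genes of one-carbon, nucleotide and polyamine synthesis 5 were lower and 0 higher at that p, next to the same shares of all genes. The median of -0.096 turned to 0.071 without the first IgMG array, when 14 had higher and 9 lower means. With the Gapdh ratio as a covariate 1 was lower (4.35%), where 2.78% of all genes were. Srm, spermidine synthase, was at 367 and 628 on the IgM arrays and 169 and 183 on the IgMG arrays, a log2 difference of -1.37 ± 0.29 (SE) (adjusted p = 0.217), and Shmt1, a serine hydroxymethyltransferase, at 264 and 386 against 162 and 121. Of 19 carriers of amino acids, phosphate and metals 4 were lower and 1 higher, again next to 6.35% and 5.79%. With the Gapdh ratio as a covariate 1 was lower (5.26%), where 2.78% of all genes were. Slc20a1, a phosphate carrier, was at 929 and 912 against 429 and 586, and Slc1a5, a glutamine carrier, at 611 and 779 against 441 and 455. Of 17 cytosolic ribosomal proteins 1 was lower (5.88%) and 0 higher, with a median of 0.029 whose sign turned with the scaling; their difference from the biogenesis genes was not tested.

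**Figure D4:**
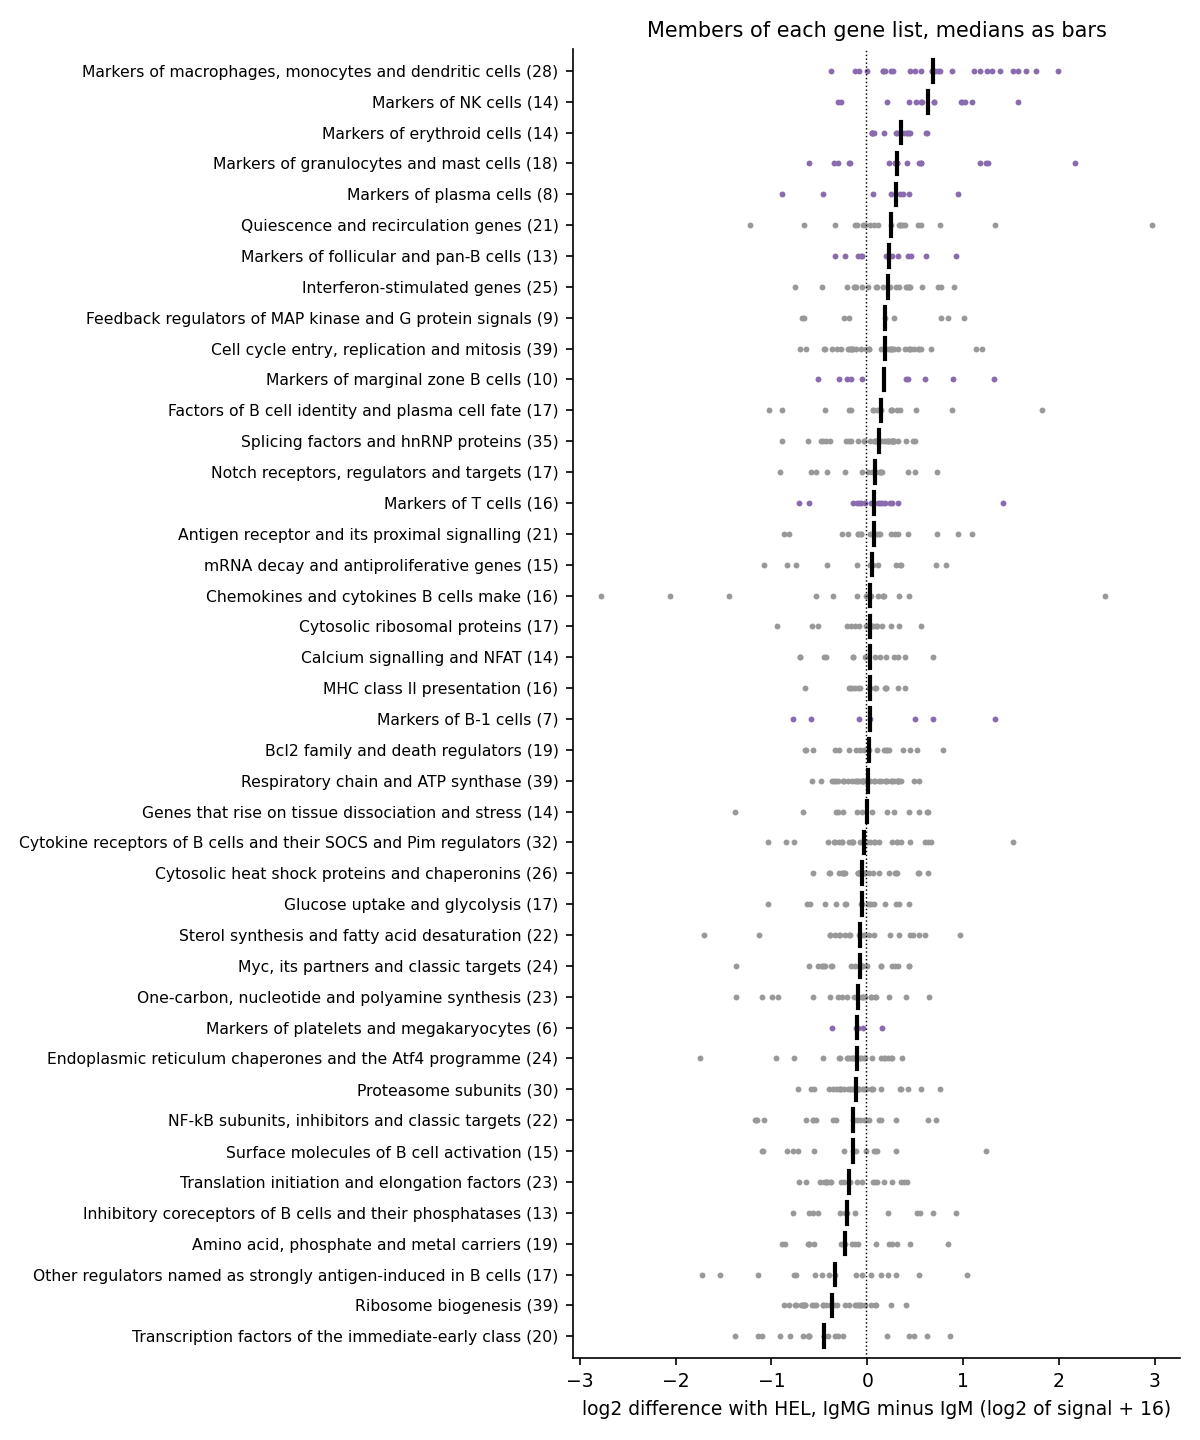
Log2 difference with HEL (IgMG minus IgM) of every measured member of each gene list with 5 or more members, lists ordered by their median (black bar), the number of members in brackets; purple points are cell type markers and the dotted line is the median of all 8251 genes (-0.012). Medians run from -0.45 for immediate-early factors to 0.69 for myeloid markers.

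The remaining genes named as higher have varied roles. Rnf145, a ubiquitin ligase of the endoplasmic reticulum, was at 553 and 425 on the IgM arrays and 1091 and 1228 on the IgMG arrays, a log2 difference of 1.23 ± 0.20 (SE), and Smc4, a condensin subunit, at 511 and 342 on the IgM arrays and 919 and 999 on the IgMG arrays, a log2 difference of 1.17 ± 0.19 (SE). Gimap1, a GTPase needed for lymphocyte survival, was at 251 and 287 against 495 and 544. In these 3 genes the IgMG arrays with HEL lay nearer to the unstimulated signals than the IgM arrays did. Cd1d1, which presents lipids, was at 169 and 89.2 against 342 and 323, Psmd1, a proteasome subunit, at 271 and 233 against 420.1 and 451, Il18bp, which neutralises interleukin-18, at 10.5 and 16.7 against 74.5 and 67.2, and Fam76b at 442 and 568 against 1003 and 877. Adjusted p-values of the 15 higher genes lay between 0.141 and 0.206.

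Sema4b, a semaphorin, was also among the higher genes, but it differed before antigen too. With HEL its signals were 192 and 122 on the IgM arrays and 379 and 359 on the IgMG arrays, and before antigen 727 and 651 in IgM and 245 and 305 in IgMG cells. It was thus higher in IgMG after antigen and lower before, with a difference of responses of 2.47 ± 0.30 (SE) (adjusted p = 0.248). The remaining Sema4b probe sets were of opposite sign with HEL.

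Of the lower genes, Rara, the retinoic acid receptor alpha, was at 57.6 and 107 against 13.3 and 4.6, Clcn7, a lysosomal chloride transporter, at 324 and 475 against 171 and 176, and Ifrd1, a transcriptional coregulator, at 408 and 279 against 143 and 113. All 15 lower genes had adjusted p-values between 0.126 and 0.217. Their signals in unstimulated cells lay below both stimulated IgM arrays in each case.

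Of 25 interferon-stimulated genes, 3 were higher and 2 lower at an unadjusted p under 0.05, where 5.79% and 6.35% of all genes were, and the median was 0.21. The median lay between 0.049 and 0.31 when single stimulated arrays were left out. With the Gapdh ratio as a covariate 0 were higher and 0 lower (median 0.053), next to 2.95% and 2.78% of all genes. Ifit3 was at 45.4 and 24.9 against 73.3 and 83.2 and Irgm1 at 98.3 and 76.2 against 137 and 185, while Irf7, a master regulator of the interferon response, was at 169.6 and 249.9 against 118 and 114, with a second, dimmer probe set that had a difference of opposite sign.

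The same receptors were then set side by side before antigen, on arrays that the stimulated comparison does not use. Without HEL limma called 0 of 12422 probe sets (0%) at an adjusted p of 0.05, the lowest adjusted p was 0.999, and 541 (4.36%) were under an unadjusted p of 0.05. Leaving out the first unstimulated IgMG array gave 19 calls. At least 2-fold without overlap were 114 (0.918%), 88 of them higher (0.708%) and 26 lower (0.209%). Over the 8251 genes 369 (4.47%) were under that p and 82 (0.994%) at least 2-fold apart, 63 of them higher (0.764%) and 19 lower (0.23%). Of the 30 genes named by their smallest p with HEL, 27 had a log2 difference without HEL of under 0.5 in size. Of the 30, 16 did not overlap between the receptors, 5 in the direction seen with HEL and 11 in the opposite one. The share of all genes without overlap in unstimulated cells was not counted, so these counts have no background. Some of the signals were near the lower end of the scale, such as Epha2 at 4.1 and 4.6 in IgM and 6 and 9.5 in IgMG cells. Log2 differences without HEL were -0.18 for Klf2, -0.04 for Plk2, 0.15 for Txnip, -0.19 for Cd22 and 0.47 for Hs3st1. The 3 genes beyond 0.5 were Irs2, at -0.72 in the same direction as with HEL, Sema4b, at -1.28, and Ccl3, at 0.81, both on the other side of 0, as was Ccl4 at 0.50. Signals of Ccl3 and Ccl4 without HEL were near the lower end of the scale, apart from Ccl3 on the second IgMG array. Outside those 30, Il1b had 1.38 and Vcam1 1.54, in the direction seen with HEL. Il1b without HEL was at 23.6 and 9 in IgM and 7.2 and 274.7 in IgMG cells. The receptors thus overlapped for Il1b, and only the second IgMG array was high.

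Of the 103 that were 2-fold higher with HEL, 74 (71.8%) were also higher without it, next to 52.0% of all probe sets. At least 2-fold higher there too, without overlap, were 16 (15.5%), next to 0.708% of all. Of the 167 that were lower, 69 (41.3%) were lower without HEL, next to 48.0% of all. By the 2-fold rule 0 of the 167 were lower without HEL, where 0.209% of all were, so this 0 is near the background. The median difference without HEL was 0.31 for the first set and 0.082 for the second. Among the 78 genes 2-fold higher with HEL, 13 were in the marker lists of cells other than B cells, and among the 89 lower genes 0 were. Of the 8251 genes these lists held 28 myeloid, 18 granulocyte, 16 T cell, 14 NK cell, 14 erythroid and 6 platelet markers.

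The 16 that were higher in both states, named after their values were seen, included Vcam1, Mrc1, Mpeg1, Fcer1g, C1qa, C1qb, Csf1r and Spic, genes of macrophages, and Ccl5, Klra3 and Klrd1, genes of NK cells. Vcam1, an adhesion molecule, was at 289 and 119 against 1374 and 454 with HEL and 103 and 119 against 226 and 548 without. C1qb, a complement subunit, was at 153 and 74.6 against 598 and 204 with HEL and 50.8 and 87.1 against 185 and 354 without, although a dimmer probe set had the opposite sign with HEL. Klra3, an NK receptor, was at 40.8 and 36.6 against 97.4 and 104 with HEL and 35.5 and 33.7 against 59.1 and 487 without. In these 3 genes each IgMG array lay above each IgM array of the same state. The second unstimulated IgMG array stood apart in these markers. Without HEL the myeloid sum was 4368 and 3876 in IgM and 5149 and 13231 in IgMG cells. The NK sum was 574 and 495 in IgM and 734.5 and 4882 in IgMG cells. Differences without HEL in such genes therefore lean on that array. Zap70, a kinase of T and NK cells, Ctse, S100a6, Slpi and 1 probe set without a gene name completed the set. At an unadjusted p under 0.05, 10 of 28 myeloid markers were higher with HEL, where 5.79% of all genes were. Their median of 0.69 became 0.37 without the second IgM array and 0.40 without the first IgMG array with HEL. With the Gapdh ratio as a covariate 2 of the 28 were higher at that p, where 2.95% of all genes were. The median in that fit was 1.04.

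**Figure D5:**
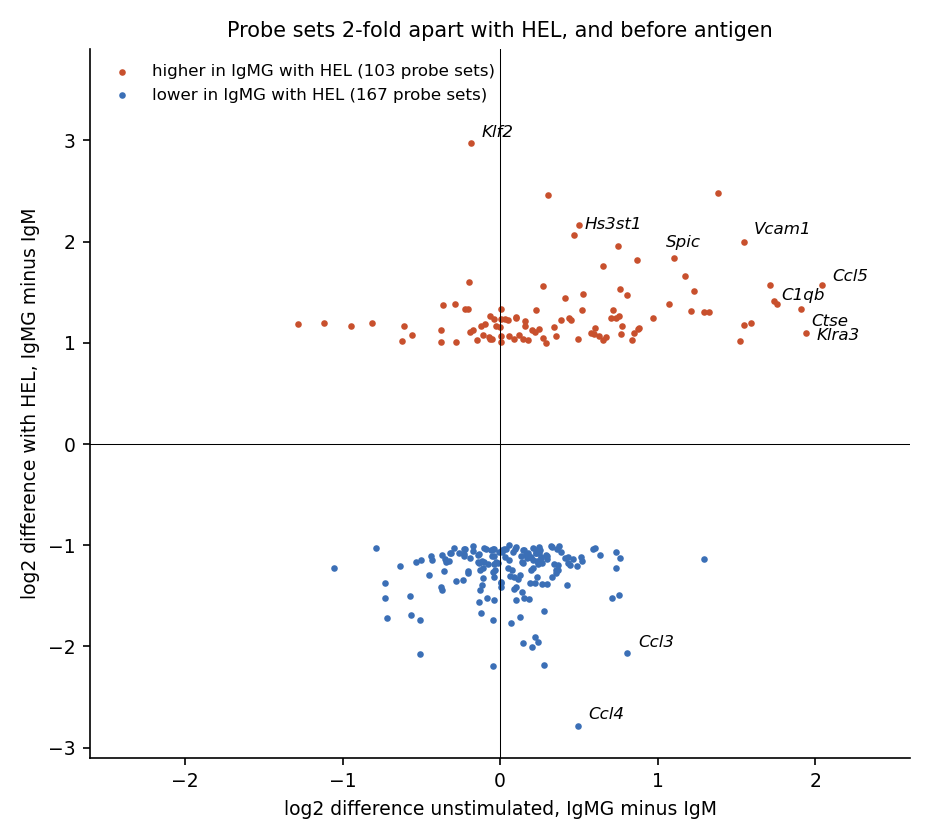
Log2 difference between IgMG and IgM cells with HEL (vertical) against the difference in unstimulated cells (horizontal), which use different arrays, for the 103 probe sets higher (red) and the 167 lower (blue) with HEL by at least 2-fold without overlap. Red points spread to the right, with Ccl5, Ctse and Klra3 farthest, and Klf2 lies at -0.18 on the horizontal axis.

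Whether antigen changed the genes by different amounts in the 2 kinds of cell was tested as the difference of the responses. It called 0 of 12422 probe sets (0%) at an adjusted p of 0.05, with a lowest adjusted p of 0.248 and 1079 (8.69%) at an unadjusted p under 0.05, or 757 of 8251 genes (9.17%). Ccl4 had a difference of responses of -3.28 ± 0.42 (SE) (adjusted p = 0.248), Klf2 of 3.16 ± 0.54 (SE) (adjusted p = 0.485) and Plk2 of -1.50 ± 0.28 (SE) (adjusted p = 0.485). Cd22 had 1.12 ± 0.19 (SE) and Irf4 -0.99 ± 0.24 (SE). This comparison shares its stimulated arrays with the one above, so its values are not independent of it.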

How the data were processed

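RNA of follicular B cells was hybridised to 8 single-colour arrays in 4 groups of 2, taken from the sample titles. The authors' deposited values are linear intensities, 1 for each probe set of each array, from MAS5 per the submitters' processing notes. Array means after trimming 2% at each end were alike, so a shift of all transcripts would not be seen. The number of arrays limits the precision. Each array pooled sorts or mice, and the labels do not say whether pools shared mice, so p-values measure the spread between these arrays. Deviations of same-numbered arrays correlated between -0.16 and 0.015 over 7453 probe sets, and no block was used in the main fit. With 2 arrays per group, these correlations cannot settle whether same-numbered arrays were prepared together.

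Signals were taken as log2(signal + 16) after leaving out 66 control probe sets of 12488. All 8 arrays entered a fit of the 4 group means in limma 3.58.1 (R 4.3.3), with trended eBayes moderation, two-sided p-values and Benjamini-Hochberg adjustment at 0.05 over 12422 probe sets; 4 residual degrees of freedom were joined by a median of 4.27 prior ones. Errors are standard errors of that fit. Symbols came from the platform annotation of 2016: 10833 probe sets had 1, 396 several and 1193 none, and 10817 of 10833 gene identifiers matched the GRCm38.p6 table. Promoters are from RefSeq. Figures used matplotlib 3.10.9 in Python 3.11.15.

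Named genes were the 15 higher and 15 lower past the threshold without overlap among the brightest 60% of probe sets (filled by the smallest unadjusted p where fewer passed, as here), up to 5 members of each of 43 gene lists by p, and Ighm, Cd79a, Cd79b, Cd22, Ccl3, Ccl4, Klf2, Dusp6, Egr1, Egr2, Nr4a1, Myc, Cd86, Plk2, Irf4, Atf4 and Nfkbia. Members and lists were chosen with earlier results of these data known, so their counts are descriptions. The fit was tested on simulated data. Alternatives covered the offset, scaling, filter, trend, arrays, block, Gapdh ratio, threshold, probe sets per gene and each array left out.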

Additional observations from a re-analysis of the deposited data

How the results depend on the processing

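Over all probe sets, 0 were called higher and 0 lower with an offset of 1, quantile normalization, median centring, no trend, the Gapdh ratio as a covariate, a threshold of 0.10 and the replicate block. An offset of 64, the brightest 60% and the 4 HEL-stimulated arrays alone each called 1 lower, Ccl4, and leaving out single arrays gave 0 to 1 lower and 0 to 1 higher, Klf2 without the first IgM array with HEL. The rule of 2-fold without overlap gave 103 and 167. At an unadjusted p under 0.05 the 647 higher became 383 with the Gapdh ratio and 400 to 864 without single arrays, and the 799 lower became 513 over the brightest 60%, 399 with the Gapdh ratio and 468 to 1083 without single arrays; the replicate block gave 581 and 761. The 2-fold counts became 561 and 818 with an offset of 1, 26 and 32 with 64, 219 higher with the Gapdh ratio, and 103 to 340 higher and 167 to 424 lower without single arrays, where fewer arrays are left to overlap.

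Without HEL, calls went from 0 to 19 at most when single arrays were left out, crossing the numbers of the unstimulated IgMG arrays in the replicate block, chosen after seeing the data, gave 0, and the difference of responses gave 1 call with an offset of 64. The 2-fold rule without HEL gave 114; for the difference of responses it was not run, as it has no overlap of arrays. Of 706 alternative values for the 41 named genes, 692 kept sign and side of the threshold, 6 passed it and 8 turned sign. Those were Cd79a (0.069 with the Gapdh ratio, 0.039 and 0.13 without the second IgM or second IgMG array with HEL; -0.27 to 0.13 over single arrays left out), Cd86 (0.13 with the Gapdh ratio) and Ighm (-0.088 with quantile normalization, -0.049 and -0.047 without the first IgM or first IgMG array with HEL, -0.15 as a mean of probe sets; -0.049 to 0.25 over single arrays left out, and 0.63 with the Gapdh ratio). Of 774 list medians 670 moved by less than the spread between arrays and 104 by more. The causes were not tested. Dim probe sets are limited by background: differences below a signal of about 16 are compressed by the offset.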

Other observations

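Lists outside the account above are given here by their counts, with the same unadjusted p. By limma 0 of their members were called at an adjusted p of 0.05. Each count is to be read next to 5.79% of all genes higher and 6.35% lower. Several lists were near these shares, so their named members are descriptions. In sterol and fatty acid synthesis (22 genes, 2 higher and 2 lower at an unadjusted p under 0.05, where 5.79% and 6.35% of all genes were, median -0.078), Mvd and Fdps, enzymes of the mevalonate pathway, were lower, at 92.4 and 102 against 20.2 and 17.3 and 163 and 254 against 90.1 and 79.4 (IgM against IgMG arrays). The desaturases Scd1 and Scd2 were higher, at 4146 and 4403 against 6633 and 5823 and 136 and 92.6 against 208 and 268. Among 30 proteasome subunits 3 were higher and 2 lower, with Psmb5, a catalytic subunit, at 412 and 588 against 255 and 332. Among 17 glycolysis genes 1 was higher and 3 lower: Ldha, lactate dehydrogenase, was at 1658 and 2134 against 1244 and 1524, Pfkl at 393 and 389.5 against 242 and 266 and the hypoxia factor Hif1a at 1355 and 1147 against 1637 and 1736. Of 39 genes of the respiratory chain 2 were higher and 1 lower, with a median of 0.0075 whose sign turned with the scaling.

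For the counts that follow, too, 5.79% of all genes were higher and 6.35% lower. Of 39 cell cycle genes 2 were higher (5.13%) and 4 lower (10.3%), with a median of 0.18. Cdk4, which drives entry into the cycle, was at 659 and 837 against 532 and 542. Cdt1, a licensing factor, was at 835 and 787 against 621 and 564. Without the second IgMG array with HEL the median turned to -0.024. In 26 heat shock proteins and chaperonins 0 were higher and 1 was lower, Cct5 at 1527 and 1441 against 1056 and 936. Among 15 genes of mRNA decay and growth arrest 2 were higher and 2 lower, with Pdcd4, an inhibitor of translation, at 572 and 403 against 842 and 879.6, and Cnot8, a deadenylase, at 469 and 869.8 against 315 and 389. Splicing factors (35) had 2 higher and 2 lower (5.71% each), near the shares of all genes, with Srsf3 at 481 and 486 against 692 and 683. Rbpj, the DNA-binding partner of Notch, was at 80.7 and 63.2 against 31.5 and 29.4, and 2 of 17 Notch genes were lower. Of 32 cytokine receptors and their regulators 2 were higher and 3 lower, Il10rb at 730.3 and 802 against 1042 and 1047 and the kinase gene Pim3 at 346 and 306 against 172 and 132. Of 19 Bcl2 family and death regulators 1 was higher and 1 lower, and of 16 genes of MHC class II presentation 1 was higher, the protease Ctss at 3694 and 3922 against 5451 and 4566.

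Among markers of B cell subsets, 2 of 13 follicular and pan-B genes were higher and 0 lower. For this and the lists below, 5.79% of all genes were higher and 6.35% lower. The 2 were Cd22 and Ighd, the latter at 286 and 275 against 409.6 and 468. Of 10 marginal zone markers 1 was higher, Cd1d1. Of 7 B-1 markers 2 were higher and 1 lower, of 8 plasma cell markers 1 was lower, of 16 T cell markers 1 was higher and 1 lower, and of 18 granulocyte and 6 platelet markers 0 differed at that level. The granulocyte gene S100a8 was at 1349.6 and 215 against 871 and 2019, lowest on the second IgM array. Of 14 genes that rise on tissue dissociation 0 were higher and 2 lower, Atf3 and Junb. Xist, the RNA of the inactive X chromosome, was at 534 and 248 against 647 and 686 with HEL and at 9.3 and 615 in IgM and 161 and 0.9 in IgMG cells without, and it was near 0 on 1 unstimulated array of each receptor.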
